A study of Caenorhabditis elegans with 9 samples.

Results

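The nuclear hormone receptor family of Caenorhabditis elegans was followed in whole wild-type N2 animals exposed to graphene oxide or to its amino-functionalized form. Members were all genes of the table whose WormBase symbol is nhr- followed by a number, which gave 269 of 46284 gene IDs, all protein-coding. A member was called expressed when it reached at least 1 FPKM (sequenced fragments corrected for transcript length and library size) in at least 3 of the 9 libraries, which 163 members did. The libraries fall into 3 groups of 3. The control group received a mock treatment without nanomaterial, the GO group graphene oxide, and the GONH2 group amino-functionalized graphene oxide, each over 12 h in liquid culture with 500 animals taken per sample. All groups were N2, so no allele or transgene separates them. The labels do not say how old the animals were, which dose they received or whether replicates were grown separately. The p values therefore measure only the spread between these samples.

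Nuclear hormone receptors are transcription factors that bind DNA through a zinc-finger domain and, in many members, a small lipophilic molecule through a second domain at the other end of the protein. The nematode family is far larger than that of insects or mammals, mostly through expansion of receptors related to the vertebrate fatty-acid sensor HNF4. Those with known roles govern fat storage and breakdown, the use of dietary metabolites, moulting, and the defence against toxins and microbes, much of it in the intestine.

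Most of the family was present in these animals, at low level, and exposure moved no member past the threshold. Of the 269 genes, 163 were expressed, which is 60.6% and close to the 62.1% of all 19725 protein-coding genes that met the same criterion. Among the other 106 members, 94 were above 0 in some library, and 12 were listed at 0 in all 9, namely nhr-9, nhr-118, nhr-155, nhr-223, nhr-233, nhr-241, nhr-245, nhr-252, nhr-259, nhr-264, nhr-267 and nhr-288. The median over expressed members of their mean FPKM was 4.67, against 20.04 for all expressed protein-coding genes. A mean of at least 50 FPKM was reached by 2 members, 0.743% of the family, and by 17.4% of protein-coding genes. The step at 1 FPKM was not a gap in the distribution. The third-highest library of nhr-150, just inside, stood at 1.01 FPKM and those of nhr-162 and nhr-218 at 1.02, while nhr-108, just outside, stood at 0.983 and nhr-123 at 0.957.

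By group, 148 members reached 1 FPKM in all 3 control libraries, 154 in all 3 GO libraries and 146 in all 3 GONH2 libraries. In single libraries 151 to 158 members passed in the control, 158 to 163 in GO and 153 to 161 in GONH2. Over all genes of the table, 12329 to 12659 passed in the control, 12520 to 12676 in GO and 12299 to 12546 in GONH2. The counts of members complete in a group were not set against all genes. The 3 groups shared 143 members that were at 1 FPKM or more in every library. Another 7 expressed members were complete in 2 groups, and 8 were complete in no group. The 5 that were complete in only 1 group (nhr-16, nhr-206, nhr-221, nhr-226 and nhr-270) were all complete in GO, and each lay near 1 FPKM. Completeness in 1 group is enough to meet the filter, so the GO libraries alone would have admitted these members. Their part in counts of direction with GO is therefore not independent of the filter. For instance, nhr-221 had 1.07, 0.850 and 0.734 FPKM in the control libraries, 1.001, 1.31 and 1.20 in GO, and 0.659, 0.644 and 0.843 in GONH2. Expressed members had no value of 0.

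The summed FPKM of the family was 1270 ± 53.2 in the control, 1338 ± 30.2 in GO and 1301 ± 29.8 in GONH2 (SD, n = 3). The single control libraries ran 1297, 1304 and 1209, those of GO 1371, 1332 and 1311, and those of GONH2 1296, 1274 and 1334. All GO sums were above all control sums, while GONH2 overlapped both. As a share of all FPKM in the library the groups overlapped, at 0.134%, 0.134% and 0.126% in the control, 0.142%, 0.132% and 0.131% in GO, and 0.131%, 0.131% and 0.140% in GONH2. Libraries held 12299 to 12676 genes at 1 FPKM or more, and read totals cannot be had from FPKM, so the depth behind each value is unknown.

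A small group of metabolic receptors made up the top of the family. The receptor nhr-49, an HNF4 relative that controls fatty-acid oxidation and desaturation, was the most abundant, with 77.2, 79.6 and 74.1 FPKM in the control, 80.7, 83.7 and 79.1 in GO, and 74.9, 76.6 and 82.4 in GONH2. Next was nhr-114, which links diet to germline health and methionine metabolism, with 46.7, 66.7 and 49.6 FPKM in the control, 53.9, 49.99 and 54.6 in GO, and 58.0, 56.2 and 51.3 in GONH2. The groups overlapped for both genes, and the widest spread for nhr-114 lay inside the control. A binding partner of NHR-49, nhr-66, averaged 49.9 FPKM over the 9 libraries and stayed between 46.9 and 51.0, while nhr-68, an activator of the propionate shunt, averaged 44.9 between 39.6 and 52.6. These 4 genes held 17.5% of the family's summed FPKM.

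The next 6 in order were nhr-46 with a mean of 35.7 FPKM, nhr-97 with 34.6, nhr-274 with 31.0, nhr-23 with 30.01, nhr-86 with 29.9 and nhr-2 with 21.5, and the first 10 together held 31.5% of the sum. Of this set, nhr-23 is the relative of the vertebrate ROR receptors that drives moulting, nhr-86 an HNF4 relative that acts in intestinal immunity, and nhr-2 a receptor found in early embryos. The ranges of neighbours in this order overlapped in most places, as for nhr-114 and nhr-66 (46.7 to 66.7 and 46.9 to 51.0 FPKM) and for nhr-46 and nhr-97 (33.7 to 38.7 and 32.4 to 37.3). Gaps were seen in 3 places. The lowest library of nhr-49 (74.1) was above the highest of nhr-114 (66.7), that of nhr-68 (39.6) above the highest of nhr-46 (38.7), and that of nhr-86 (27.2) above the highest of nhr-2 (24.7). Means of at least 20 FPKM were reached by 10 members, of at least 10 by 38 and of at least 5 by 76.

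**Figure D1:**
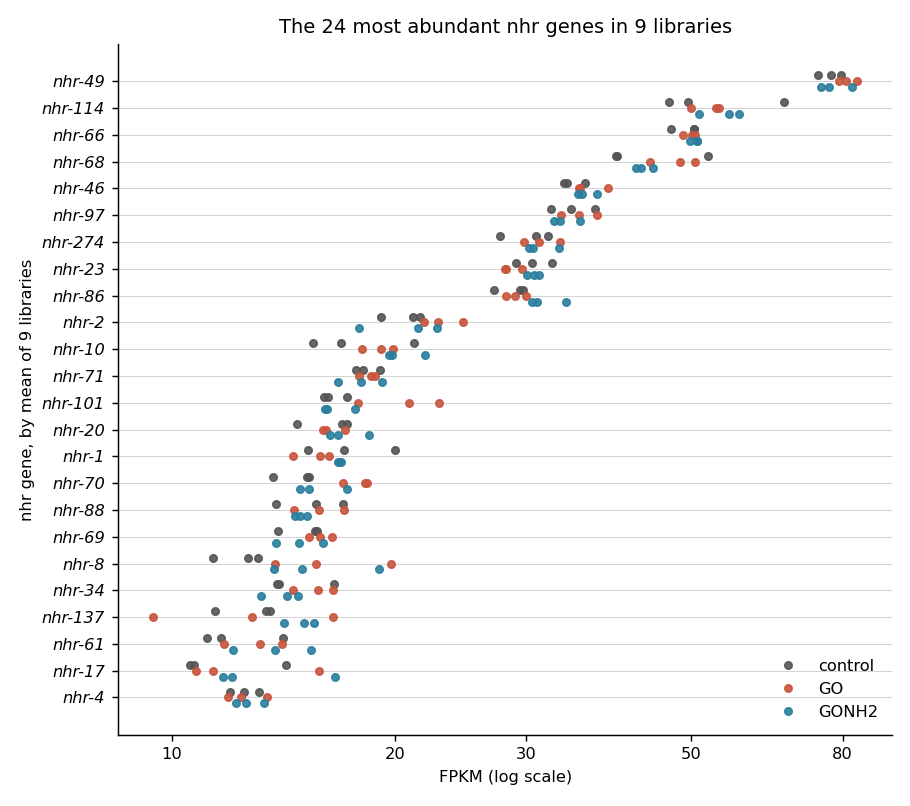
FPKM on a log axis of the 24 nhr genes with the highest mean, 1 point per library, coloured by group. The 9 points of nhr-49 lie between 74.1 and 83.7, and for most genes the points of the 3 groups are intermixed.

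Levels were steady across libraries. The ratio of the highest to the lowest of the 9 libraries had a median of 1.501 over the 163 expressed members and was under 2 in 141 of them. The narrowest ratio was 1.09, for nhr-66 and for nhr-28, whose values ran 9.81, 9.62 and 9.02 FPKM in the control, 9.45, 9.06 and 9.63 in GO, and 9.44, 9.14 and 9.81 in GONH2. The widest was 3.15, for nhr-74, with 1.37, 3.35 and 1.29 FPKM in the control, 1.22, 1.06 and 1.502 in GO, and 2.25, 2.003 and 2.42 in GONH2. Here a single control library held the highest value, and all GONH2 libraries were above all GO libraries.

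Position and gene structure went with expression. In the Ensembl annotation of assembly WBcel235, chromosome V carries 167 members, 62.1% of the family but 25.1% of protein-coding genes. Of these, 101 were expressed (60.5%), against 47.1% of all protein-coding genes on V. On the other chromosomes together 62 of 102 members were expressed (60.8%). The expressed share was thus alike, while the level was not: the median mean FPKM of expressed members was 3.53 on V and 9.40 elsewhere, and of the 38 members at 10 FPKM or more, 9 lay on V and 29 elsewhere. On chromosome I the order was the reverse, with 8 of 23 members expressed (34.8%) where 70.2% of its protein-coding genes were, and yet it carries nhr-49, nhr-23 and nhr-2. The members' share was also the lower on chromosomes III (62.5% against 76.4%) and II (60% against 62.8%).

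Many members lie next to each other, with no other protein-coding gene between them. There were 44 such runs, 32 of them on chromosome V, holding 137 members. Of the members in runs 80 were expressed (58.4%), with a median mean of 3.25 FPKM, and 3 reached 10 FPKM. Of the 132 members without an nhr neighbour 83 were expressed (62.9%), with a median of 9.13 FPKM, and 35 reached 10 FPKM. In 17 runs every gene was expressed, in 13 none was, and 14 were mixed. The longest, 9 genes on chromosome V from nhr-185 to nhr-124, had no expressed member, and its highest mean was 0.191 FPKM (nhr-158). Also on V, all 7 genes of the run nhr-161, nhr-163, nhr-139, nhr-140, nhr-162, nhr-107 and nhr-42 were expressed, with means of 0.886 to 10.4 FPKM. The 7 genes from nhr-56 to nhr-96 were too, at 2.63 to 6.66 FPKM. How reads shared by similar neighbours were assigned is not stated, so single levels within runs are less certain than those of genes that stand alone. These shares and medians are descriptions of genes in one set of libraries and were not tested.

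**Figure D2:**
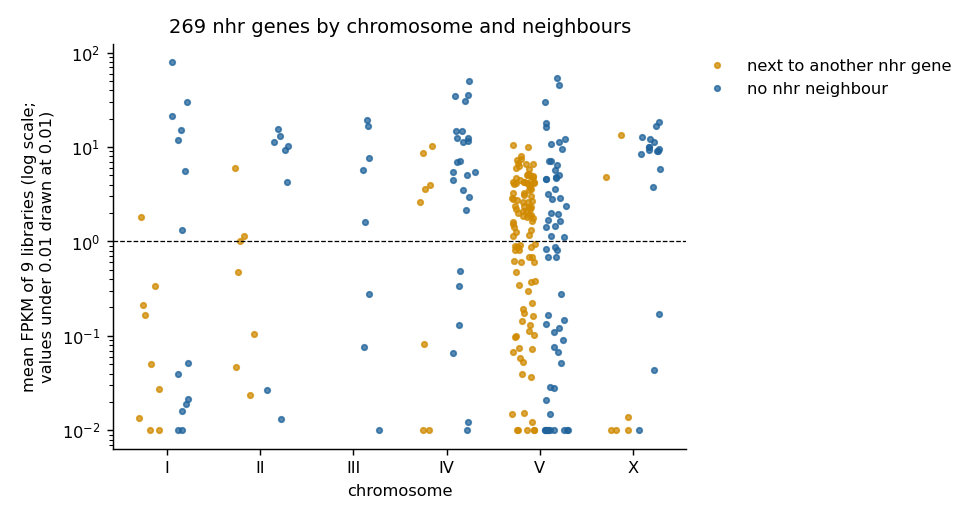
Mean FPKM of the 9 libraries on a log axis for all 269 nhr genes by chromosome, each point 1 gene, coloured by whether an adjacent protein-coding gene is also an nhr gene; the dashed line is 1 FPKM and values under 0.01 are drawn at 0.01. Genes with an nhr neighbour crowd chromosome V below 10 FPKM, and most genes above 10 FPKM have no such neighbour.

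Expressed members were also longer and had more annotated transcripts. Their median longest protein was 414 residues against 347.5 in members not expressed, and the median of exon bases was 1455 against 1154.5. More than 1 transcript was annotated for 88 expressed members (53.99%) and for 19 of the others (17.9%). Annotation of transcripts itself draws on expression data, so this last share is not independent of the level.

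No expressed member passed the threshold in any comparison. With limma on log2(FPKM + 1) and Benjamini-Hochberg adjustment over all 12849 genes tested, 0 of 163 members had an adjusted p under 0.05 for GO against control, where 1.26% of all genes did. The count was also 0 for GONH2 against control, where 0.436% of all genes passed, and 0 for GONH2 against GO, where 0.132% passed. An F test over the 3 groups together called 0 members and 0.957% of all genes. At an unadjusted p under 0.05 the limma counts were 14, 7 and 9 members for the 3 comparisons and 9 for the F test. As shares of the 163 these were 8.59%, 4.29%, 5.52% and 5.52%, against 7.74%, 5.31%, 4.65% and 6.5% of all genes. The share of members was therefore near the background in each case. All comparisons share libraries (GO and GONH2 were set against the same controls), so their counts are not independent of each other.

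The direction of the small differences was uneven with GO. The log2 difference of GO minus control was above 0 in 120 of 163 members (73.6%), against 61.6% of all genes, with a median of 0.074 against 0.024. With the libraries rescaled so that the median ratio to the gene mean was the same in each, 108 members were above 0, with a median of 0.047 against -0.0019 over all genes. The median leaned on single libraries, being 0.036 without control replicate 3 and 0.049 without GO replicate 1. All GO libraries lay above all control libraries in 26 members and below them in 1 (nhr-99), where 9% and 3.12% of all genes did so, so 26 members make up 16% of the 163. Of the members at an unadjusted p under 0.05 (limma), 13 were higher (7.98% of the 163) and 1 lower (0.613%), against 6.2% and 1.53% of all genes. For GONH2 minus control 92 members were above 0 (56.4%, against 51.8% of all genes) with a median of 0.016, against 0.0031 over all genes. The members' median was -0.010 without control replicate 3 and -0.0062 without GONH2 replicate 3. It was 0.045, 0.031 and 0.032 without control replicate 1, GONH2 replicate 1 and GONH2 replicate 2. The groups did not overlap in 12 higher (7.36%) and 4 lower (2.45%) members, against 5.18% and 3.65% of all genes. For GONH2 minus GO 58 members were above 0 (35.6%, against 37.1%) with a median of -0.050, against -0.024 over all genes. Without GONH2 replicate 2 the members' median was also -0.024. In that comparison 6 members were higher without overlap (3.68%) and 18 lower (11%), against 2.93% and 7.09% of all genes.

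Differences of single members ran from -0.39 to 0.52 on the log2(FPKM + 1) scale for GO minus control, from -0.49 to 0.38 for GONH2 minus control and from -0.48 to 0.51 for GONH2 minus GO. Their 95% confidence interval extended a median of 0.296 to each side, wider than the 0.217 of all genes tested. It lay wholly within a 1.5-fold change of FPKM + 1 in either direction for 142, 143 and 144 of the 163 members. These were 87.1%, 87.7% and 88.3% of members, against 81.0%, 83.0% and 82.7% of all genes tested. On this scale the change of a gene near 1 FPKM is understated, and members were of lower level than protein-coding genes at large. The shares of members and of all genes are therefore not like for like. In RNA of whole animals, moreover, fewer cells of a type and less RNA per cell cannot be told apart.

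**Figure D3:**
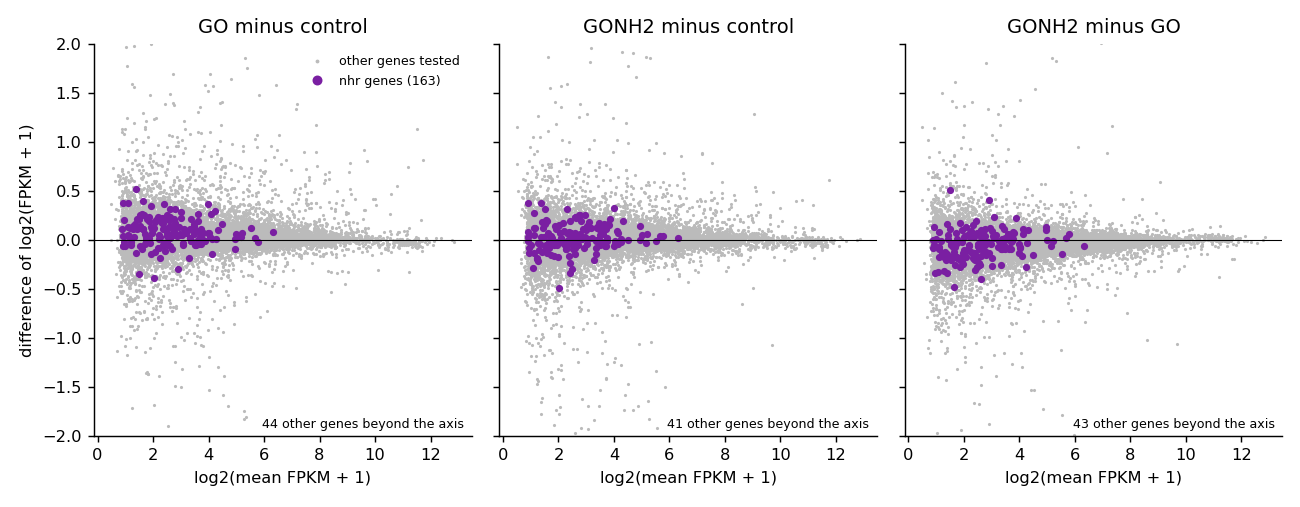
Difference of log2(FPKM + 1) between 2 groups against log2 of the mean FPKM + 1, with 1 point per gene tested, nhr genes in purple and all others in grey; the 3 panels are the 3 comparisons, and the axis is limited to 2 either way. The nhr points stay between -0.49 and 0.52 and sit mostly above 0 for GO minus control.

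In GO, the members with the smallest p were of moderate or low abundance. The smallest belonged to nhr-70, at 15.3, 13.7 and 15.2 FPKM in the control, 18.2, 18.3 and 17.0 in GO, and 14.9, 15.3 and 17.2 in GONH2. Its 3 GO values were above the 3 control values, with a log2 difference of 0.26 ± 0.073 (SE) and an adjusted p of 0.249 in limma. A larger difference at a lower level was seen in nhr-195, at 1.12, 1.19 and 0.965 FPKM in the control, 2.45, 1.98 and 1.61 in GO, and 2.20, 1.37 and 1.65 in GONH2. All treated libraries of nhr-195 were above all controls, by 0.52 ± 0.15 with GO (adjusted p = 0.288, limma) and by 0.38 ± 0.15 with GONH2 (adjusted p = 0.863). The log2 differences of the others were 0.37 for nhr-50, 0.29 for nhr-101, 0.40 for nhr-7, 0.37 for nhr-208, 0.34 for nhr-112 and -0.39 for nhr-99, with adjusted p of 0.316 to 0.439.

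With GONH2 the smallest p belonged to nhr-99, the only member whose GO values all lay below the controls. It had 4.27, 3.26 and 4.18 FPKM in the control, 3.08, 2.51 and 2.63 in GO, and 2.72, 2.73 and 2.02 in GONH2. All treated values were under all control values, with a log2 difference of -0.49 ± 0.14 for GONH2 and an adjusted p of 0.389 in limma. Its run on chromosome V also holds nhr-212, in which all 6 treated libraries were above the controls, at 4.11, 4.74 and 4.83 FPKM in the control, 5.39, 5.83 and 5.32 in GO, and 5.41, 5.14 and 5.89 in GONH2. The difference for nhr-212 was 0.22 ± 0.092 with GONH2 (adjusted p = 0.881, limma), opposite in sign to nhr-99. Both were picked for their small p. The other genes of the run were at 0.18 for nhr-55, 0.25 for nhr-130, 0.006 for nhr-211 and 0.15 for nhr-106 with GONH2. The rest of the 8 members with the smallest p for GONH2 were nhr-87 at 0.32, nhr-208 at 0.37, nhr-156 at -0.30, nhr-86 at 0.14 and nhr-8 at 0.33. Their adjusted p were 0.541 to 0.955 (limma).

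Set directly against each other, GONH2 and GO gave no member past the threshold. The smallest p belonged to nhr-7, at 1.55, 2.28 and 1.85 FPKM in the control, 2.61, 3.04 and 2.74 in GO, and 1.61, 1.62 and 1.93 in GONH2. All GO values were above those of both other groups, which overlapped. GONH2 minus GO was -0.48 ± 0.12 (adjusted p = 0.582, limma), with a 95% confidence interval from -0.77 to -0.20. The same order was seen for nhr-133, at 4.60, 4.72 and 4.83 FPKM in the control, 5.84, 5.38 and 5.55 in GO, and 4.69, 4.25 and 4.62 in GONH2, with a difference of -0.26 ± 0.080 (adjusted p = 0.786). The log2 differences of the other 6 were -0.28 for nhr-101, -0.40 for nhr-202, -0.34 for nhr-221, -0.28 for nhr-92, -0.33 for nhr-213 and -0.28 for nhr-156, with adjusted p of 0.786 to 0.9997. Of these, nhr-221 met the filter for expression only through its GO libraries, so its difference from GO is not independent of the filter. Because the same GO libraries give both, a member that is high in GO is picked in both comparisons that use them.

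**Figure D4:**
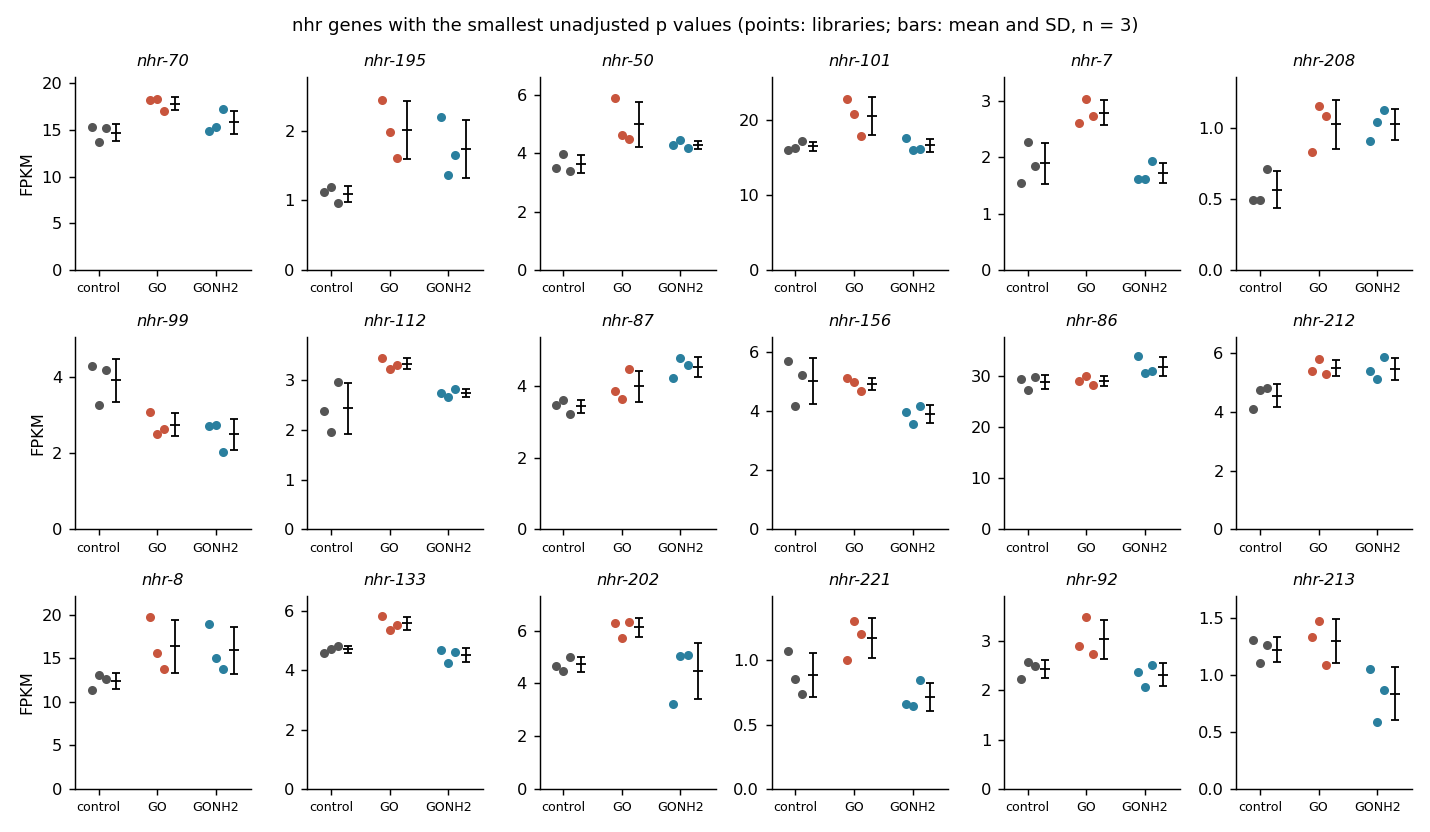
FPKM of the 18 nhr genes with the smallest unadjusted p in the 3 comparisons, with 1 point per library and the mean and SD of each group (n = 3) beside it; axes start at 0. Groups are separated for several genes, such as nhr-99 and nhr-195, but no gene passed after adjustment over all genes.

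Among the 14 receptors with clear counterparts in insects or vertebrates, 12 were expressed and 0 were called. The 2 not expressed, nhr-111 and nhr-239, stayed at or under 0.214 and 0.401 FPKM. The one with the smallest p with GO was nhr-8, a relative of the vertebrate vitamin D and xenobiotic receptors that protects worms from toxins and takes part in cholesterol metabolism. It had 11.4, 13.1 and 12.7 FPKM in the control, 19.7, 15.7 and 13.8 in GO, and 18.99, 14.99 and 13.7 in GONH2. All treated libraries were above all controls, but the spread within each treated group was wide, and the differences were 0.37 with GO (adjusted p = 0.580, limma) and 0.33 with GONH2 (adjusted p = 0.955). The other 11 lay between -0.13 and 0.08 with GO, among them nhr-23, nhr-25 (the relative of FTZ-F1 and SF-1, needed in the epidermis and gonad), nhr-48, nhr-64, nhr-69, nhr-41 and nhr-91. Lower still were nhr-67, the tailless relative of the anchor cell, at 2.61 to 4.38 FPKM, nhr-6, the NR4A relative of the spermatheca, at 1.19 to 2.48, and nhr-85, the Rev-erb relative, at 0.929 to 2.05.

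The 10 receptors of metabolism were all expressed, and 0 were called. Their median log2 difference was 0.086 with GO, 0.029 with GONH2 and 0.0066 for GONH2 minus GO. Besides nhr-49, nhr-66, nhr-68 and nhr-114 they include nhr-80 and nhr-13, which act with NHR-49, nhr-10, the second receptor of the propionate shunt, nhr-62, needed for the long life of underfed worms, nhr-76, of serotonin-driven fat loss, and nhr-14, of iron uptake. For nhr-80, the regulator of fatty-acid desaturases, the control spread was as wide as the whole range, with 6.19, 9.25 and 6.16 FPKM in the control, 6.66, 7.72 and 8.86 in GO, and 7.77, 7.70 and 8.04 in GONH2. Control replicate 2 held the highest value of nhr-80, nhr-68 and nhr-114.

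Of the 9 receptors of moulting and development, all were expressed and 0 were called, with differences between -0.13 and 0.16 for GO and between -0.19 and 0.06 for GONH2. The highest with GO was nhr-2, at 21.1, 19.1 and 21.6 FPKM in the control, 24.7, 22.8 and 21.9 in GO, and 17.8, 21.5 and 22.8 in GONH2. Its GO values were just above the controls, with a difference of 0.16 (adjusted p = 0.799, limma). The muscle receptor nhr-40 stood at 8.08 to 10.8 FPKM and nhr-60 at 0.958 to 1.89.

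The 7 receptors linked to stress and xenobiotics gave 0 calls. Their median difference with GO was 0.21, against 0.074 for the family, in a range from -0.06 to 0.37. With GONH2 the median was 0.12, in a range from -0.05 to 0.33. Both medians are the values of nhr-57 (SE 0.25). With GO, nhr-28 and nhr-42 were at -0.01 and -0.06. Besides nhr-8 and nhr-28, they include nhr-112, which had 2.39, 1.95 and 2.96 FPKM in the control, 3.44, 3.22 and 3.31 in GO, and 2.74, 2.66 and 2.82 in GONH2. Its GO values were above both other groups, by 0.34 over the control (adjusted p = 0.439, limma). For nhr-176, which carries the response to the drug thiabendazole, the difference was 0.23 with GO (adjusted p = 0.781) and -0.04 with GONH2. For nhr-86 it was 0.01 with GO and 0.14 with GONH2, where values of 33.9, 30.6 and 31.0 FPKM were all above the 29.4, 27.2 and 29.7 of the control (adjusted p = 0.857). The hypoxia-induced nhr-57 was uneven within groups, at 12.5, 6.52 and 7.30 FPKM in the control, 12.0, 11.1 and 7.42 in GO, and 11.1, 8.69 and 8.21 in GONH2. In nhr-42 the groups overlapped, at 8.50 to 11.8 FPKM.

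At an unadjusted p under 0.05 limma gave 1, 0 and 0 of the conserved receptors for GO, GONH2 and GONH2 minus GO, 2, 1 and 1 of the stress and xenobiotic receptors, and 0 of those of metabolism and of moulting and development.

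Genes that work with the receptors gave no calls either. At an unadjusted p under 0.05 limma also gave 0 in each of their lists except for the targets of NHR-86, with 1, 2 and 1 of 2 genes in the 3 comparisons. Of 6 nuclear receptors known by other names 4 were expressed, and 0 were called. They include daf-12, the dauer receptor, at 3.08 to 4.47 FPKM, sex-1 at 39.7 to 51.0, fax-1, and the zinc sensor hizr-1 at 1.73 to 2.86, while odr-7 and unc-55, receptors of few neurons, were under 1 FPKM. Of the 5 coregulators 0 were called; mdt-15, the Mediator subunit that NHR-49 uses, lay between 47.3 and 53.9 FPKM. Of the 6 genes listed with dafachronic acid synthesis, which makes the ligand of DAF-12, 4 were tested and 0 called. Those not tested were daf-9, at 0.317 to 1.06 FPKM, and hsd-1, at 0 to 0.118.

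Target genes of the receptors did not pass in any comparison: 0 of 9 for NHR-49 and NHR-80, 0 of 5 for the propionate shunt, 0 of 2 for NHR-86 and 0 of 8 moulting genes. The fasting gene acs-2, an acyl-CoA synthetase under NHR-49, varied widely within groups, at 242, 48.99 and 126 FPKM in the control, 238.7, 144 and 45.8 in GO, and 179, 104 and 82.2 in GONH2. The lowest p in these lists belonged to irg-4, an infection response gene regulated by NHR-86, with 8.39, 7.84 and 7.81 FPKM in the control, 8.93, 8.07 and 6.90 in GO, and 6.07, 5.18 and 5.76 in GONH2. All GONH2 values were below the rest, with a difference from control of -0.44 (adjusted p = 0.236, limma). A second such gene, irg-5, was at 9.88, 10.3 and 10.3 FPKM in the control, 8.26, 8.44 and 8.67 in GO, and 7.35, 8.53 and 8.67 in GONH2. All its treated values were below the controls, with differences of -0.24 for GO (adjusted p = 0.379, limma) and -0.28 for GONH2 (adjusted p = 0.372).

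Across the 9 libraries, 32 receptor and target pairs taken from these lists were correlated on log2(FPKM + 1). Of these, 6 had an exact two-sided permutation p under 0.05 for Pearson's r, but none after Benjamini-Hochberg adjustment over the 32. The pairs were chosen after values had been seen. The strongest was nhr-80 with fat-5, a fatty-acid desaturase, at r = 0.84 (exact permutation p = 0.0031, adjusted 0.0725) and Spearman's rho of 0.87 (exact permutation p = 0.0045, adjusted 0.144). Without the 2 libraries farthest from the median of nhr-80, r was 0.75, and with group means taken out it was 0.87. The values of fat-5 ran 13.01, 35.96 and 21.4 FPKM in the control, 25.3, 27.7 and 43.7 in GO, and 21.9, 26.1 and 28.9 in GONH2. The second was nhr-49 with ech-1.1, an enzyme of fatty-acid oxidation, at r = 0.82 (exact permutation p = 0.0045, adjusted 0.0725) and rho of 0.65 (exact permutation p = 0.067), and r was 0.61 without 2 libraries. For nhr-49 and acs-2 r was -0.18 (exact permutation p = 0.637). Among the 6 pairs, nhr-86 with irg-5 was negative, at r = -0.67 (exact permutation p = 0.042, adjusted 0.224). Its r was -0.015 without 2 libraries and -0.73 with group means taken out. Also among them were nhr-80 with fat-6, at r = 0.73 (exact permutation p = 0.017, adjusted 0.179), and with fat-7, at 0.70 (exact permutation p = 0.035, adjusted 0.224). Without 2 libraries these were 0.68 and 0.47. The last of the 6 was nhr-68 with ech-6 of the propionate shunt, at r = 0.74 (exact permutation p = 0.024, adjusted 0.194), and 0.49 without 2 libraries. For nhr-68 and the other genes of the shunt r was -0.0095 with acdh-1, -0.62 with hach-1, -0.44 with hphd-1 and -0.67 with alh-8.

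**Figure D5:**
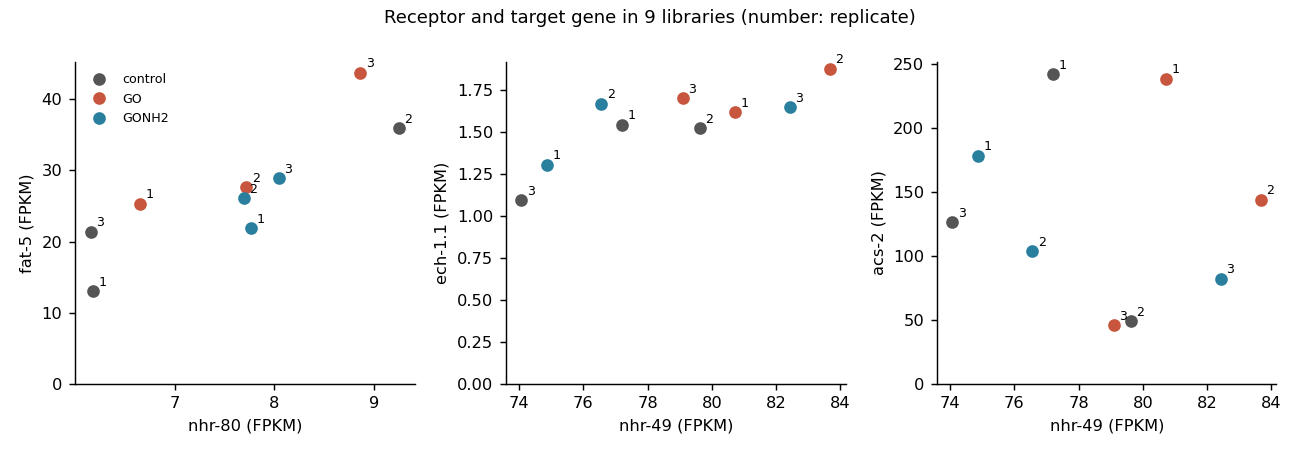
FPKM of a target gene against FPKM of its receptor in 9 libraries, coloured by group and numbered by replicate, for nhr-80 with fat-5, nhr-49 with ech-1.1 and nhr-49 with acs-2. The fat-5 points are higher where nhr-80 is higher (r = 0.84), while those of acs-2 show no slope with nhr-49 (r = -0.18). Both r are of log2(FPKM + 1).

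Markers of the animals' tissues were checked beside these results. Markers of intestine, hypodermis, body wall muscle, neurons and germline were detected, except rol-6 at 0 to 0.328 FPKM, and the 4 sperm markers summed to 0.165 to 1.52 FPKM. The intestinal esterase ges-1 was the one marker that rose with GO, from 21.9, 19.1 and 21.2 FPKM to 27.8, 27.4 and 27.5 (difference 0.40, adjusted p = 0.0177, limma), and was at 27.5, 25.6 and 24.5 in GONH2 (adjusted p = 0.127). Of the 4 intestinal markers 3 were above 0 with GO, and their median log2 difference was 0.21. For vha-6, a proton pump subunit of the intestine, values were 78.4, 79.0 and 77.9 FPKM in the control, 92.5, 90.8 and 90.9 in GO, and 81.5, 81.2 and 70.8 in GONH2. Its GO values were above both other groups, by 0.22 over the control (adjusted p = 0.140, limma). For elt-2, the intestinal GATA factor, the difference was 0.21 (adjusted p = 0.696) and for act-5, an actin, -0.03 (adjusted p = 0.990). The summed list, most of which is act-5, overlapped, at 358 to 416 FPKM in the control, 374 to 438 in GO and 372 to 395 in GONH2. The part of the intestine's share in the small upward differences of members with GO was not tested.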

How the data were processed

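RNA-seq of 9 samples was used. Per the labels, animals were broken with beads in TRIzol, RNA was cleaned on RNeasy columns, and stranded TruSeq libraries were read from both ends on a HiSeq instrument. The authors deposited FPKM per gene in a table of the whole series. DESeq2 is named in the submitters' processing notes without a role and was not rerun. The aligner, counter, build and gene models are not stated in these sources. Symbols were found for 43325 of 46284 gene IDs, and positions come from Ensembl release 115. FPKM hold no read totals, so no count test, counting interval or floor is given.

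The filter for expression (1 FPKM in 3 of 9 libraries) left 12849 genes. Their log2(FPKM + 1) values were fitted to the 3 groups with limma 3.58.1 (R 4.3.3; moderated variances, trended prior), and Benjamini-Hochberg adjustment ran over that whole set with a threshold of 0.05. The step was tested on simulated data. Members and gene lists were chosen with earlier results of these data known. Named members are the 8 with the smallest p per comparison, the 10 most abundant, those of the role lists, and those nearest the filter, with up to 4 genes from each list outside the family. The members nhr-28, nhr-74 and nhr-158, the runs, the members listed by name beside counts, and the receptor and target pairs were chosen after their values were seen. So were the genes named for their order by replicate number.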

Additional observations from a re-analysis of the deposited data

How the results depend on the processing

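All 18 alternative settings (an addition of 0.1 or 0.5 before the logarithm, 3 other filters, median-of-ratios scaling, no mean-variance trend, fits to the 6 libraries compared, a block for replicate number, and the omission of each library singly) gave 0 nhr genes past the threshold in every comparison and in the F test. Over all genes, calls ranged from 105 to 162 for GO minus control, from 24 to 56 for GONH2 minus control and from 1 to 21 for GONH2 minus GO, against 162, 56 and 17 in the fit reported; the lowest counts came without GO replicate 2, GONH2 replicate 1 and GONH2 replicate 3. All 429 values of the 18 genes with the smallest p kept their sign, and the smallest adjusted p among them was 0.0764 (limma). These genes were picked by p in the same libraries. The kept sign was therefore largely fixed by that choice and adds no evidence for their differences. The median difference of the family ranged from 0.036 to 0.095 for GO minus control, from -0.010 to 0.045 for GONH2 minus control and from -0.073 to -0.024 for GONH2 minus GO when 1 library was omitted. Expressed members numbered 157 to 210 over the filters and 160 to 163 when 1 library was omitted. Counts at an unadjusted p under 0.05 ranged from 10 to 22 for GO minus control, 4 to 12 for GONH2 minus control and 5 to 18 for GONH2 minus GO. The high ends came with no filter. Without control replicate 2 the counts of the 2 GONH2 comparisons were 11 and 15, without GONH2 replicate 1 GONH2 minus control had 4, and without GO replicate 2 GONH2 minus GO had 5. With the replicate number as a block, 0 members were called and 14, 8 and 6 had an unadjusted p under 0.05. Deviations of same-numbered libraries correlated at -0.168 to 0.131 over all genes tested, and those of differently numbered libraries at -0.248 to 0.269. No pairing by number was seen over all genes, but whether same-numbered samples shared a batch cannot be told from this. The genes acs-2 and nhr-57, picked after their values were seen, were highest in replicate 1 of every group. Among the listed targets of NHR-49 and NHR-80, icl-1 and fmo-2 were also highest there in every group, and fat-5 and cpt-5 lowest. The other genes of that list were neither. Some genes, including targets correlated above, thus followed the replicate number. Values without read totals and 3 libraries per group limit what could be seen, above all for members near 1 FPKM.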
